A study of Mus musculus with 7 samples.

Results

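The mitochondrial ribosomal proteins were followed in endothelial cells of mouse skeletal muscle. They were taken as all rows of the expression tables whose symbol is Mrpl or Mrps followed by a number and at most 1 letter. The rule found 78 genes among the 30899 in the tables, 49 with a large-subunit symbol (Mrpl) and 29 with a small-subunit symbol (Mrps). All 78 passed the filter on low values, a mean of at least 10 normalised counts over the 7 libraries, and their means ran from 56.5 to 531.

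Mitochondria keep a ribosome of their own, which descends from a bacterial one and translates the few mRNAs of the mitochondrial genome, all of which encode subunits of the respiratory chain and the ATP synthase. Its RNAs come from mitochondrial DNA, but its proteins are encoded in the nucleus, made in the cytosol and imported. The small subunit binds the mRNA and reads the codons, and the large subunit joins the amino acids and passes the chain towards the inner membrane. Some of the proteins have a counterpart in bacteria, and others belong to mitochondria alone.

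Bulk RNA sequencing was done on muscle endothelial cells isolated with beads, with RNA extracted directly afterwards. The groups were 3 libraries from wild-type mice and 4 from mice whose sample titles name a loss of Glut1 in these cells, and no further treatment was given. The strain, age and sex of the mice, the promoter that drove any recombinase and whether each library came from its own animal are not given in the sources at hand, so p-values measure the spread between these libraries, which may be technical. Glut1 is the glucose transporter encoded by Slc2a1. Slc2a1 was counted at 1032, 1083 and 1266 in the wild-type libraries and 953, 1435, 824 and 1087 under the knockout label, and the groups overlapped (log2 fold change -0.09, SE 0.18, limma adjusted p = 0.738). The second group is therefore called the knockout-labelled libraries, and directions given for that group rest on its labels.

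Normalised counts summed to between 11855652 and 13441728 per wild-type library and between 14592369 and 15731074 per knockout-labelled library, while the reads behind them were estimated at 14736944 to 18020310 and 11260176 to 14156876. Wild-type library 1 stood apart: it had 2794 genes listed at 0, against 5872 and 6551 in the other wild-type libraries and 7301 to 9306 in the other group. The mean log2 value of olfactory and vomeronasal receptor genes (1164 symbols) was 3.20, 2.29 and 2.12 in the wild-type libraries. It was 1.43, 1.45, 1.73 and 1.36 in the knockout-labelled libraries, so that measure separated the groups too. Whether endothelial cells use any of these receptors was not tested. In bulk RNA, fewer cells of a type and less RNA per cell cannot be told apart.

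Transcripts of the mitochondrial ribosomal proteins were more abundant in the knockout-labelled libraries, with few single genes past the threshold. Of the 78 genes, 12 rose and 0 fell (limma, adjusted p under 0.05 over all tested genes), and 0 fell at an unadjusted p under 0.05, where 39 were higher. The 12 are 15.4% of the members. Over the whole table of 16931 tested genes, 11.5% were called in either direction and 5.98% higher, and of the 6273 protein-coding genes with a mean in the members' range 5.13% were called higher. At an unadjusted limma p under 0.05, 2772 of the 16931 genes were higher and 2695 lower. Of the 6273 genes, 1115 were higher and 501 lower at that level. The estimate was above 0 for 75 members and below 0 for 3. For the 6273 protein-coding genes of that range it was above 0 in 4011 and below 0 in 2262. The median log2 fold change of the 78 members was 0.50, from -0.17 to 1.11. The corresponding median was 0.15 over protein-coding genes of that range and 0.02 over all tested genes. In 34 members, or 43.6%, all 4 knockout-labelled values lay above all 3 wild-type values, against 14.7% of all tested genes and 16.4% of the protein-coding genes of the same range. In the plot of single-gene changes, 39 of the intervals lie wholly above 0 and the others reach across it.

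**Figure D1:**
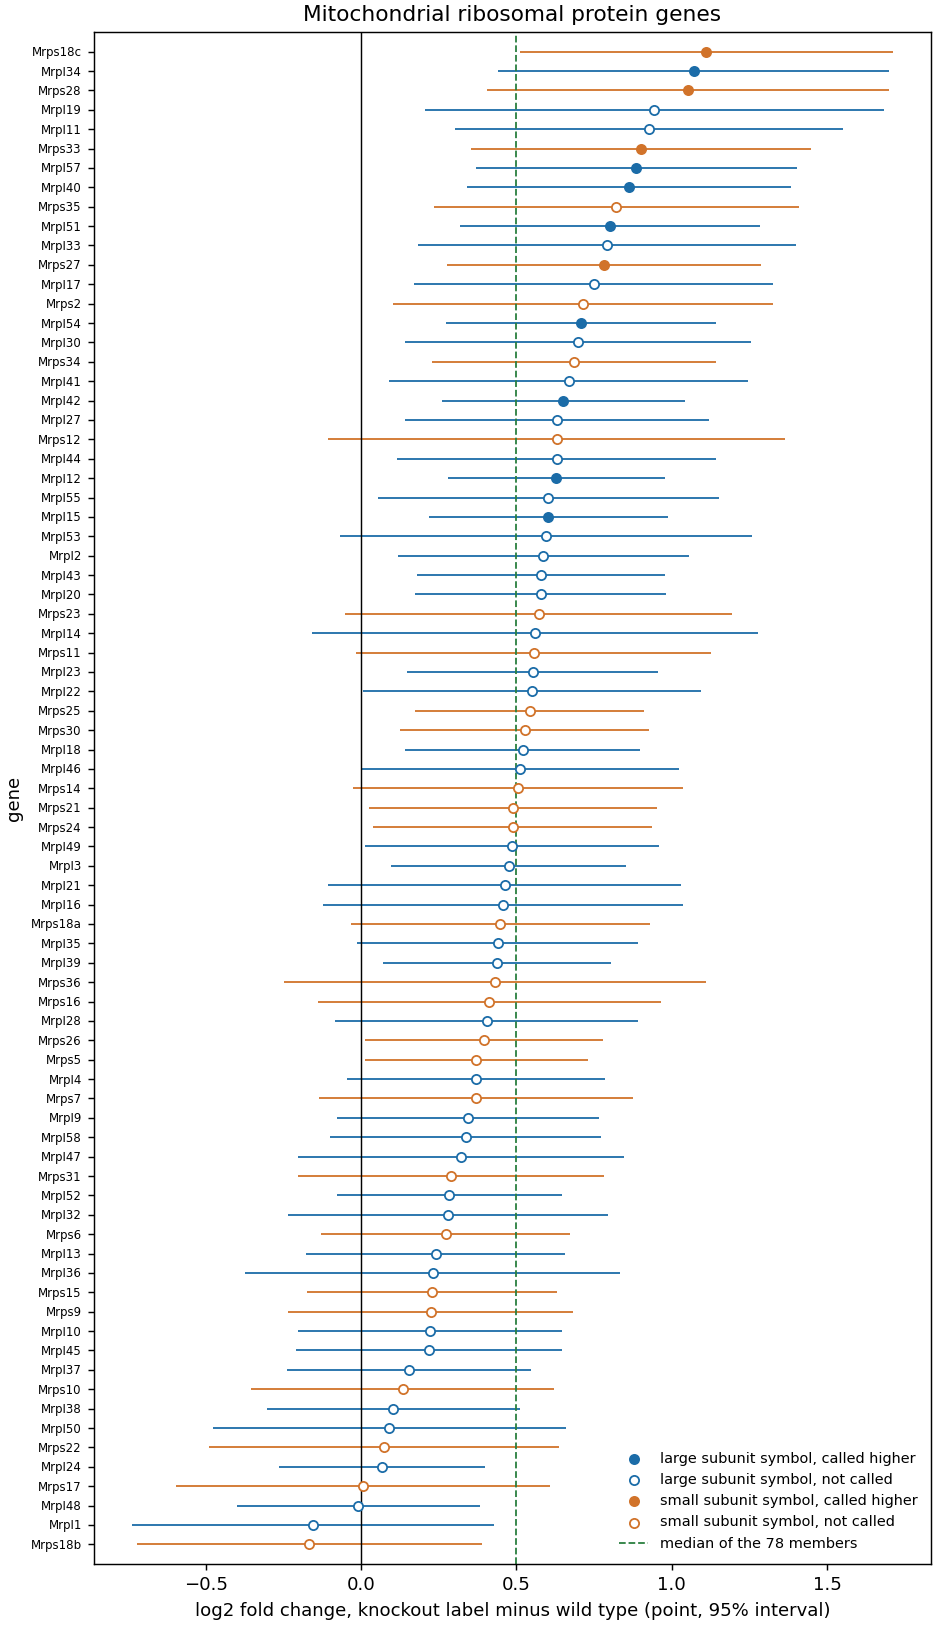
Log2 fold change, knockout label minus wild type, of each of the 78 genes (horizontal axis, point with 95% interval from limma; vertical axis, genes in order of the change), in blue for large-subunit and orange for small-subunit symbols. Filled points are the 12 called higher, 75 points lie above 0, and the dashed line is the median of 0.50.

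Summed over the 78 genes, the normalised counts were 11358, 14731 and 14362 in wild-type libraries 1 to 3 and 19489, 17677, 16938 and 19559 in knockout-labelled libraries 1 to 4. The lowest knockout-labelled sum was above the highest wild-type sum. Group means were 13484 ± 1850 (SD, n = 3) and 18416 ± 1315 (SD, n = 4), which stand in a ratio of 1.37. As a share of all normalised counts, the members took 0.0958%, 0.110% and 0.107% in the wild-type libraries and 0.124%, 0.120%, 0.116% and 0.129% in the knockout-labelled libraries, so the groups did not overlap on that scale either. Wild-type library 1 was the lowest of the 7 libraries for 54 of the 78 genes, and knockout-labelled libraries 1 and 4 were the highest for 24 and 32.

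These calls rested on single libraries. Without wild-type library 1, 0 of the 78 members passed limma's threshold, with 20 higher at an unadjusted p under 0.05, and the median change was 0.37, while 38 genes were called over the whole table. Without knockout-labelled library 1 or 4 the count was also 0, with 26 and 30 at an unadjusted p under 0.05, and without wild-type library 2 it was 5. With all libraries scaled to equal totals, 1 member was called, 13 estimates were below 0 and the median was 0.27, against -0.20 over all tested genes. On that scale 226 of the 16931 tested genes were called higher and 1621 lower. Once the receptor level of each library entered the model, 0 members and 0 genes of the table were called by limma (0 members and 742 genes at an unadjusted p under 0.05), 33 members had estimates below 0 and the member median was 0.08. The receptor level separated the groups by itself, so this model cannot tell it apart from the group label. The plot of settings sets these values side by side.

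**Figure D2:**
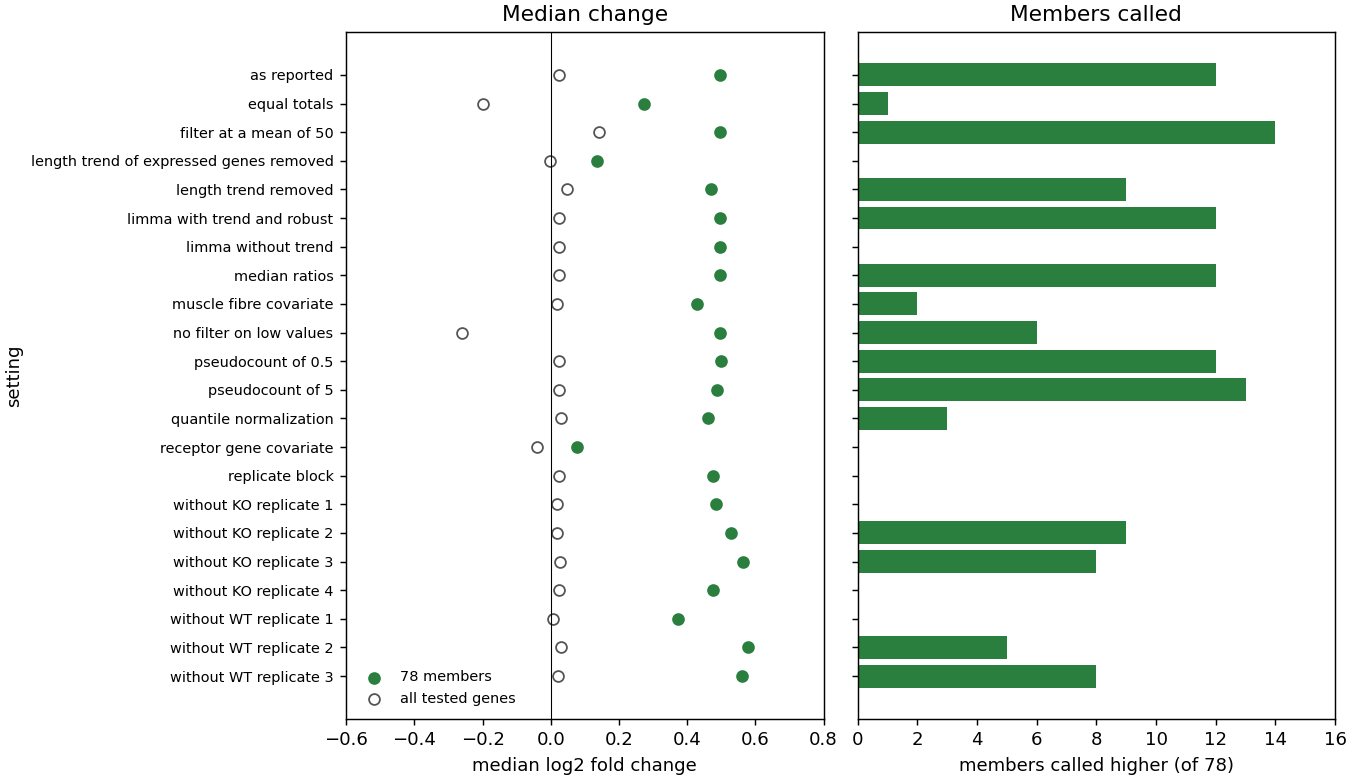
Median log2 fold change of the 78 members (filled) and of all tested genes (open) on the left, and the number of members called higher on the right, under the reported model and each alternative (rows; WT wild type, KO knockout label). The member median is above 0 in every row, from 0.08 to 0.58, while the count runs from 0 to 14.

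Among the large-subunit genes, 8 of 49 rose and 22 had groups that did not overlap, with a median log2 fold change of 0.52. Mrpl34, a small protein with a bacterial counterpart, had the largest estimate of that subunit. Its level, given like all levels that follow in normalised counts, was 43.7, 52.04 and 69.8 in the wild-type libraries and 92.7, 101, 114 and 164 under the knockout label (log2 fold change 1.07, SE 0.29, limma adjusted p = 0.0354). Each knockout-labelled library exceeded each wild-type library, and the highest value came from knockout-labelled library 4. Mrpl57, a protein found in mitochondria and not in bacteria, stood at 91.6, 122 and 87.2 in the wild-type libraries and 192, 135, 208 and 213 under the knockout label (log2 fold change 0.89, SE 0.24, adjusted p = 0.0348). Mrpl40, which sits in the central protuberance and whose human gene lies in the region deleted in DiGeorge syndrome, stood at 84.5, 106 and 79.9 in the wild-type libraries and 191, 120.5, 186 and 166 under the knockout label (log2 fold change 0.86, SE 0.24, adjusted p = 0.0393). For both genes knockout-labelled library 2 was the lowest of its group and still above wild type.

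Mrpl12 forms the stalk that receives translation factors, and in human cells it has also been found bound to the mitochondrial RNA polymerase. Its counts were 232, 267 and 277 in the wild-type libraries and 411, 364, 399 and 425 under the knockout label (log2 fold change 0.63, SE 0.16, limma adjusted p = 0.0299), with tight groups that did not overlap. Group means were 259 ± 23.8 (SD, n = 3) and 399.8 ± 26.3 (SD, n = 4). Mrpl42 and Mrpl51, both specific to mitochondria, had their lowest value in wild-type library 1. For Mrpl42 the counts were 206, 286 and 298 in the wild-type libraries and 410.3, 369, 390.2 and 469 under the knockout label (log2 fold change 0.65, SE 0.18, adjusted p = 0.0384). For Mrpl51 they were 126, 233 and 236 in the wild-type libraries and 352, 299, 326 and 359 under the knockout label (log2 fold change 0.80, SE 0.23, adjusted p = 0.0384). The wild-type spread of Mrpl51 came from 1 low library, and the other 2 wild-type values differed by little. Mrpl54, another protein of mitochondria only, stood at 113, 123 and 126 in the wild-type libraries and 222, 171, 191 and 209 under the knockout label (log2 fold change 0.71, SE 0.20, adjusted p = 0.0412). Mrpl15, a core protein shared with bacteria, stood at 199, 182 and 205 in the wild-type libraries and 354, 285, 269.8 and 287 under the knockout label (log2 fold change 0.60, SE 0.18, adjusted p = 0.0458). In both genes the wild-type values lay close together and below every value of the other group.

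Other large-subunit genes are described by their place in the ribosome. Of the 3 genes of the stalk and its base, Mrpl10, Mrpl11 and Mrpl12, 1 was called, with a median log2 fold change of 0.63. Mrpl11, at the base where the GTPase factors bind, had counts of 69.1, 113 and 78.6 in the wild-type libraries and 193, 107, 146 and 231 under the knockout label (log2 fold change 0.93, SE 0.29, adjusted p = 0.0528). It had one of the largest estimates, yet knockout-labelled library 2 fell within the wild-type range. Of the 8 genes around the exit of the peptide tunnel 0 were called by limma, with 5 higher at an unadjusted p under 0.05 and a median of 0.49. Within that rim Mrpl17 had counts of 225, 465 and 469 in the wild-type libraries and 930.3, 457, 566 and 598 under the knockout label (log2 fold change 0.75, SE 0.27, adjusted p = 0.0796), and Mrpl24 had 419, 409 and 423 in the wild-type libraries and 487, 452, 376 and 442 under the knockout label (log2 fold change 0.07, SE 0.15, adjusted p = 0.787). The values of Mrpl24 were close to level across libraries, whereas those of Mrpl17 ran from the lowest in wild-type library 1 to the highest in knockout-labelled library 1. Of the 4 genes near the peptidyl transferase centre, Mrpl2, Mrpl3, Mrpl4 and Mrpl16, 0 were called by limma, with 2 higher at an unadjusted p under 0.05 and a median of 0.47. The 7 genes of the central protuberance had a median of 0.51, and Mrpl40 was the 1 called.

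Mrpl19, which lies at the face towards the small subunit, had counts of 45.4, 82.2 and 112 in the wild-type libraries and 218, 167, 91.7 and 131 under the knockout label (log2 fold change 0.94, SE 0.34, adjusted p = 0.0828). Its estimate was large, but its groups overlapped. Mrpl58, a peptidyl-tRNA hydrolase that also frees stalled ribosomes, stood at 172, 211 and 229 in the wild-type libraries and 325, 216, 232 and 266 under the knockout label (log2 fold change 0.34, SE 0.20, adjusted p = 0.263). Mrpl1, of the stalk on the side where the used tRNA leaves, had counts of 112, 155 and 170.4 in the wild-type libraries and 91.6, 118, 191 and 134 under the knockout label (log2 fold change -0.15, SE 0.27, adjusted p = 0.722). Mrpl48, of the central protuberance, had 391, 383 and 285 in the wild-type libraries and 383, 317, 300.0 and 399 under the knockout label (log2 fold change -0.01, SE 0.18, adjusted p = 0.979). Mrpl1 and Mrpl48 were the 2 large-subunit genes with estimates below 0, and in both the groups overlapped.

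Among the small-subunit genes, 4 of 29 rose and 12 had groups that did not overlap, with a median log2 fold change of 0.49. Mrps28, a protein with a bacterial relative, had counts of 42.1, 68.6 and 68.3 in the wild-type libraries and 114, 119.5, 90.2 and 179 under the knockout label (log2 fold change 1.05, SE 0.30, limma adjusted p = 0.0412). Mrps33, found in mitochondria and not in bacteria, had 64.5, 93.8 and 99.9 in the wild-type libraries and 155, 164, 124 and 203 under the knockout label (log2 fold change 0.90, SE 0.26, adjusted p = 0.0399). Mrps27 is a pentatricopeptide repeat protein, of a family that binds RNA, and stood at 113, 98.5 and 175 in the wild-type libraries and 247, 222, 216 and 181 under the knockout label (log2 fold change 0.78, SE 0.24, adjusted p = 0.0471). In all 3 genes the groups were apart, narrowly so in Mrps27, where wild-type library 3 came close to knockout-labelled library 4. Of the 5 genes along the path of the mRNA and at the decoding site, Mrps2, Mrps5, Mrps7, Mrps12 and Mrps24, 0 were called by limma, with 3 higher at an unadjusted p under 0.05 and a median of 0.49. Mrps5, at the entry of the mRNA channel, had counts of 377, 420.2 and 347 in the wild-type libraries and 531, 513, 393 and 545 under the knockout label (log2 fold change 0.37, SE 0.17, adjusted p = 0.143). Mrps17, a protein that binds the small rRNA, had 174, 191 and 250.2 in the wild-type libraries and 137, 217, 167 and 344 under the knockout label (log2 fold change 0.01, SE 0.28, adjusted p = 0.990). Mrps22, in which mutations cause mitochondrial disease in humans, had 91.7, 101 and 85.5 in the wild-type libraries and 85.4, 78.2, 132 and 102 under the knockout label (log2 fold change 0.07, SE 0.26, adjusted p = 0.865). The values of Mrps17 and Mrps22 in the 2 groups covered each other.

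The 3 Mrps18 paralogues descend from 1 bacterial small-subunit protein and take different places: Mrps18c and Mrps18b sit in the small subunit, and Mrps18a, despite its symbol, in the large one. Mrps18c had the largest log2 fold change of all 78 members. Its counts were 37.7, 60.8 and 55.3 in the wild-type libraries and 119, 101, 95.04 and 126 under the knockout label (log2 fold change 1.11, SE 0.28, limma adjusted p = 0.0277), with group means of 51.3 ± 12.04 (SD, n = 3) and 110.4 ± 14.8 (SD, n = 4). Mrps18a stood at 137, 136 and 134 in the wild-type libraries and 175, 216, 137 and 227 under the knockout label (log2 fold change 0.45, SE 0.22, adjusted p = 0.181), and Mrps18b at 101, 97.5 and 146 in the wild-type libraries and 90.8, 90.9, 131 and 93.2 under the knockout label (log2 fold change -0.17, SE 0.26, adjusted p = 0.681). Mrps18a did not pass the test, and knockout-labelled library 3 lay level with its wild-type values, just above the highest, while Mrps18b had the lowest estimate of all members.

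The log2 ratio of Mrps18c to Mrps18b was -1.40, -0.67 and -1.38 in the wild-type libraries and 0.39, 0.15, -0.46 and 0.44 in the knockout-labelled libraries. Without overlap, the ratio changed by 1.28, with a two-sided exact permutation p = 0.0571, and 0.0857 after adjustment over the 3 pairs. The unadjusted value is the smallest this form of the test allows with 3 against 4 libraries, since it doubles the one-sided p. The ratio of Mrps18c to Mrps18a changed by 0.66 with the same p, and that of Mrps18b to Mrps18a by -0.62 (exact permutation p = 0.171, adjusted p = 0.171). None of the 3 ratios passed 0.05, a level this form of the test could not reach, so it cannot decide whether the ratios differ between groups. The 3 pairs share their genes, and the test was chosen with earlier results of these data known. Mrps18c and Mrps18b also had the highest and the lowest estimate of all members. The ratios were taken after adding 1 to each value, so scaling of the libraries affects them only through that addition.

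**Figure D3:**
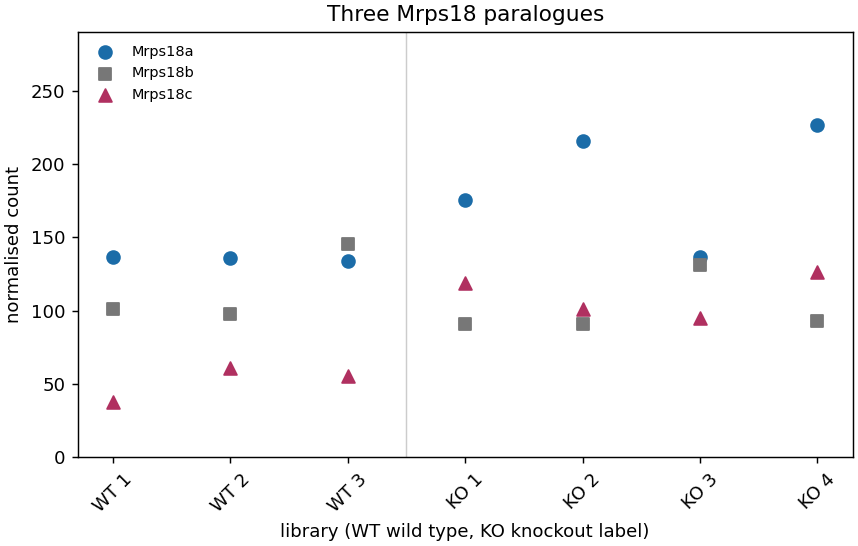
Normalised counts (vertical axis) of Mrps18a (circles), Mrps18b (squares) and Mrps18c (triangles) in each library (horizontal axis; WT wild type, KO knockout label). Triangles lie at 37.7 to 60.8 in the wild-type libraries and at 95.04 to 126 in the other group, while squares run from 97.5 to 146 and from 90.8 to 131.

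Start-site sequences of these paralogues and of 3 further called members are shown so that the motif counts given after them can be seen in members with different estimates. They are RefSeq sequences of build GRCm38.p6, not the build the submitters' processing notes name, each from 130 bases before the annotated start to 20 bases of the transcript, 5' to 3' on the gene's strand. Capitals mark matches to motifs searched on both strands: an ETS-type motif CCGGAAG, an NRF1-like motif GCGCANGCG, a YY1-like motif AAGATGGCG and an Sp1-like motif GGGCGG.
Mrps18a, chr17:46110874-46111023, plus strand: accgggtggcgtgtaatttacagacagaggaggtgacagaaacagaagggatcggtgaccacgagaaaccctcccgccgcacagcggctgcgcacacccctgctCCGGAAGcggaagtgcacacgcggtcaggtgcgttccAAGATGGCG
Mrps18b, chr17:35916421-35916570, minus strand: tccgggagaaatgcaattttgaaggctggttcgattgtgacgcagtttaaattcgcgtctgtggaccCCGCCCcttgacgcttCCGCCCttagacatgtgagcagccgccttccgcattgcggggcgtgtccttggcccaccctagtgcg
Mrps18c, chr5:100798629-100798778, plus strand: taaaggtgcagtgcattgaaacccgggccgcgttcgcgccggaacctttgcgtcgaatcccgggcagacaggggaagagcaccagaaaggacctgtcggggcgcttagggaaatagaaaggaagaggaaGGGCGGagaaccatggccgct
Mrpl12, chr11:120484507-120484656, plus strand: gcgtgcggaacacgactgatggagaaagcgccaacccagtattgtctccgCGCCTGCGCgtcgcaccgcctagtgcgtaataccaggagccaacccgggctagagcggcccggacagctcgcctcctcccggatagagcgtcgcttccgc
Mrpl34, chr8:71464796-71464945, plus strand: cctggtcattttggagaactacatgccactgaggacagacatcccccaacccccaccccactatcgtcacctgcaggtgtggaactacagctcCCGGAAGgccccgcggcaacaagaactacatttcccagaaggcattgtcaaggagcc
Mrps33, chr6:39810917-39811066, minus strand: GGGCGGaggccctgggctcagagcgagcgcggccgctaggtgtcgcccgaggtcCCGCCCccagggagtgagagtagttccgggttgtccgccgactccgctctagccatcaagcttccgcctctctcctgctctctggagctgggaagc
The window of Mrps18a held an ETS-type match that began 26 bases before the start and a YY1-like match at base 12 of the transcript. That of Mrps18b held 2 Sp1-like matches, 63 and 47 bases before the start, on the opposite strand. The window of Mrps18c held 1 Sp1-like match across the start, that of Mrpl12 an NRF1-like match on the opposite strand 80 bases before it, that of Mrpl34 an ETS-type match 37 bases before it, and that of Mrps33 Sp1-like matches 130 and 76 bases before it. The paralogues thus shared no motif of the 4 between Mrps18a and the other 2 in these windows.

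The reference tables held 75 promoters for 69 of the 78 genes, each from 250 bases before to 50 after a start. The ETS-type motif lay in 34.7% of them, against 15.8% of the 13869 promoters of tested protein-coding genes and 8.86% of all 32851. The NRF1-like motif lay in 21.3%, against 11.98% and 6.25%, and the YY1-like motif in 10.7%, against 2.69% and 1.40%. The Sp1-like motif lay in 52.0%, against 59.8% and 35.7%. Mean GC content was 59.0% in the member promoters, 60.0% in those of tested protein-coding genes and 53.8% in all. The 26 genes with an ETS-type match had a median log2 fold change of 0.56, with 6 called, and the 43 without had 0.44, with 3 called. For the NRF1-like motif the medians were 0.46 in the 16 genes with a match (2 called) and 0.49 in the 53 without (7 called). For the YY1-like motif they were 0.47 in 8 genes (2 called) and 0.49 in 61 (7 called), and for the Sp1-like motif 0.50 in 34 (6 called) and 0.48 in 35 (3 called). These differences were not tested. A match is a description of letters and does not show binding.

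The large and small subunits were compared next. The large-subunit genes summed to 7478, 9604 and 9516 normalised counts in the wild-type libraries and 13025, 11366, 11399 and 12840 in the knockout-labelled libraries. The small-subunit genes summed to 3881, 5127 and 4846 and to 6463, 6311, 5539 and 6720. Neither subunit's groups overlapped, and the mean sums stood in ratios of 1.37 and 1.36. The large sum divided by the small sum was 1.93, 1.87 and 1.96 in the wild-type libraries and 2.02, 1.80, 2.06 and 1.91 in the knockout-labelled libraries, and averaged 1.92 ± 0.0455 (SD, n = 3) and 1.95 ± 0.115 (SD, n = 4), and those groups overlapped. The median change of the large-subunit genes exceeded that of the small-subunit genes by 0.03 on the log2 scale, and this difference of medians was not tested. It was 0.11 without knockout-labelled library 2 and -0.030 after removal of the length trend of expressed genes.

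**Figure D4:**
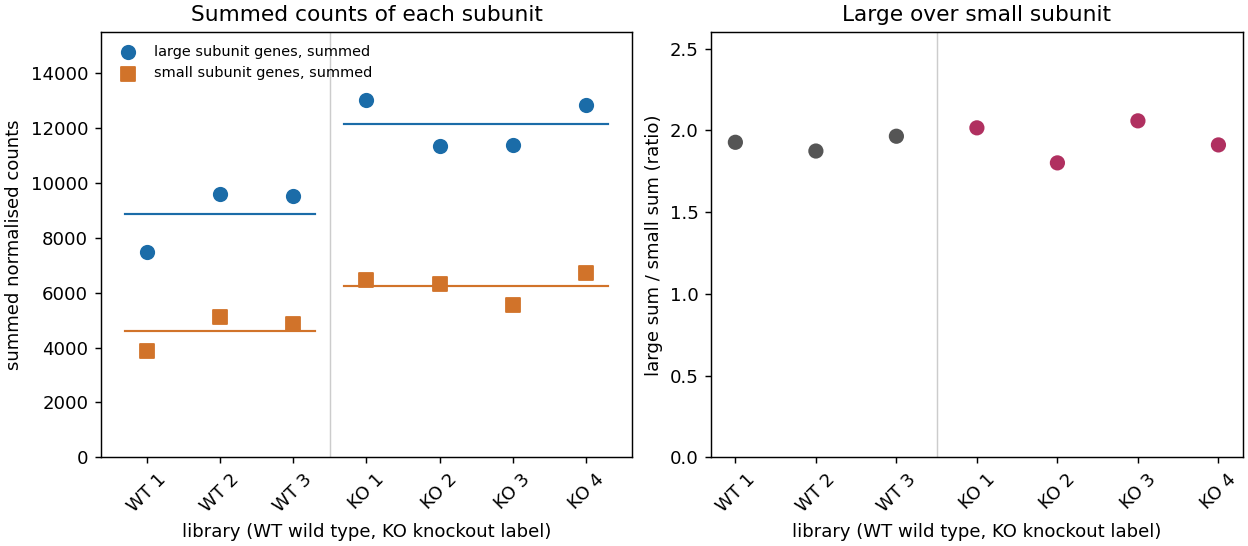
Left, summed normalised counts (vertical axis) of the 49 large-subunit genes (circles) and 29 small-subunit genes (squares) in each library, with group means as lines; right, the large sum divided by the small sum. Both sums are higher in each knockout-labelled library (KO) than in any wild-type library (WT), and the ratio stays between 1.80 and 2.06.

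Symbols and places do not always match in this particle. Mrps18a and Mrps30 are now placed in the large subunit by structures, and Mrps36 has been assigned to the 2-oxoglutarate dehydrogenase complex instead of the ribosome. Mrps30 stood at 189, 195 and 237 in the wild-type libraries and 324, 339.6, 278 and 255 under the knockout label (log2 fold change 0.53, SE 0.19, adjusted p = 0.0765). Mrps36 stood at 42.4, 92.9 and 94.9 in the wild-type libraries and 85.4, 116, 108 and 85.2 under the knockout label (log2 fold change 0.43, SE 0.32, adjusted p = 0.359). Mrps30 had groups that did not overlap, and Mrps36 had groups that did. With Mrps18a and Mrps30 counted as large and Mrps36 left out, 8 of 51 large-subunit genes and 4 of 26 small-subunit genes were called, with medians of 0.52 and 0.49. The 48 ribosome proteins with a bacterial counterpart had 5 called and a median of 0.48, and the 29 without one had 7 called and a median of 0.54, a difference that was not tested.

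Levels between genes were compared per kilobase of principal transcript, since longer transcripts give more reads. The longest annotated principal form of each gene was used, and which form these cells make was not tested. On that scale the members' mean normalised counts per kilobase ran from 24.2 for Mrpl19 to 1270.2 for Mrpl52, with a median of 125. Mrpl52 had a mean of 531 normalised counts before division by length and Mrpl17 a mean of 529.9, but Mrpl17, with a longer transcript, came to 72.6 per kilobase. Mrpl24 came to 321 per kilobase and Mrpl14, the gene with the lowest mean, to 87.6. Among the small-subunit genes, Mrps24 came to 402 per kilobase, Mrps5 to 99.7, Mrps25 to 59.8, Mrps18c to 133 and Mrps11 to 82.6. Mrpl52 itself stood at 375, 473 and 581 in the wild-type libraries and 596, 561, 522 and 609 under the knockout label (log2 fold change 0.28, SE 0.17, adjusted p = 0.254). Its groups overlapped, so the most abundant member per kilobase was not among those called.

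Estimates differed with transcript length. Members under 1000 bases had a median log2 fold change of 0.59 (25 genes, 5 called), those of 1000 to 2000 bases 0.43 (28 genes, 4 called) and those of at least 2000 bases 0.44 (25 genes, 3 called). Other protein-coding genes with means in the members' range had medians of 0.46, 0.26 and 0.08 in the same length classes (330, 1408 and 4440 genes). Of these other genes 53, 116 and 140 were called higher. That is 16.1%, 8.24% and 3.15%, against 20%, 14.3% and 12% of the members in those classes. The members' median was above that of the other genes in each class, by the least in the shortest. With the length trend over all tested genes that have a length removed, 9 members were called and the median change of the members was 0.47. Of the 16509 genes in that fit, 942 were called higher. Another version, chosen after seeing the data, kept the 11021 protein-coding genes averaging 50 or more and removed the trend fitted on them. By limma it called 121 genes higher and 0 members. Of the members 9 were higher at an unadjusted p under 0.05, and their median change was 0.14. The versions differ in their genes and in the length used, all annotated exons in the first and the principal transcript in the second. Across the 78 members, as a description, the change had a Pearson r of -0.15 and a Spearman rho of -0.21 with log2 transcript length, and -0.20 and -0.19 with the log2 mean.

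**Figure D5:**
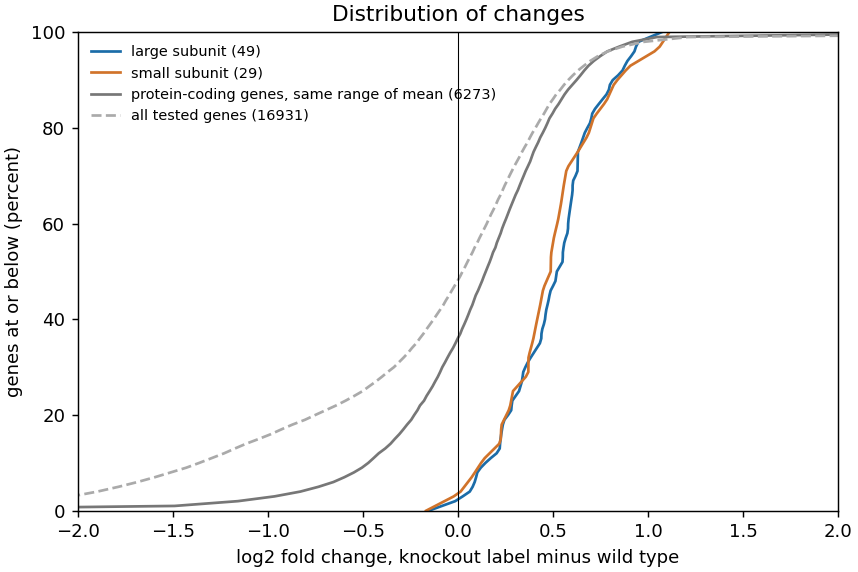
Cumulative distribution of log2 fold changes (horizontal axis; vertical axis, percent of genes at or below) for the 49 large-subunit genes, the 29 small-subunit genes, 6273 protein-coding genes with means in the same range and all 16931 tested genes. The curves of both subunits cross their medians at 0.52 and 0.49, to the right of 0.15 and 0.02 for the other 2.

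Many of these genes share a start region with a neighbour. In the GRCm38 annotation 23 of the 78, or 29.5%, had a gene on the opposite strand starting within 1000 bases, against 10.8% of 13778 tested protein-coding genes. The 23 had a median log2 fold change of 0.63, with 6 called, and the other 55 a median of 0.49, also with 6 called. Of the 22 neighbours tested, 1 rose, or 4.55% against 5.98% of all tested genes. Another 2 fell, where 936 of the 16931 tested genes fell. The median of the neighbours was -0.05, with 11 estimates above 0 and 11 below. The neighbour of Mrpl49 is Fau, which encodes a cytosolic ribosomal protein fused to a ubiquitin-like protein. Fau rose by 0.59 on the log2 scale, and Mrpl49 had an estimate of 0.49. The start of Ppp1r10, a regulatory subunit of protein phosphatase 1, lies 45 bases from that of Mrps18b. Ppp1r10 stood at 3467, 3464 and 2687 in the wild-type libraries and 1433, 1629.7, 1817 and 1254 under the knockout label (log2 fold change -1.07, SE 0.15, adjusted p = 0.00388). Eme1, a subunit of a DNA repair nuclease beside Mrpl27, stood at 66.3, 22.03 and 29.5 in the wild-type libraries and 2.92, 4.75, 11.5 and 3.10 under the knockout label (log2 fold change -2.63, SE 0.66, adjusted p = 0.0279). These neighbours were lower in each knockout-labelled library than in any wild-type library, whereas the groups overlapped in Mrps18b, with an estimate of -0.17 (95% interval -0.72 to 0.39), and in Mrpl27, with an estimate of 0.63.

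Exons of 35 members overlapped another annotated gene or the member had a named pseudogene. An overlap on the opposite strand was present in 28 members, one on the same strand in 8, and a named pseudogene in 3. No label states whether counting kept strands apart, so reads of such pairs may be shared, and the levels of these members are uncertain. Of the called members, Mrps18c and Mrpl51 had an overlap on the same strand, and Mrpl12 and Mrps27 on the opposite strand. Mrps18b had an overlap on the opposite strand, so the ratio of Mrps18c to Mrps18b is uncertain as well. The 43 members without any of these had 8 called and a median of 0.49.

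The rest of the mitochondrial translation apparatus was taken from fixed lists. Of the 5 ribosome proteins with other symbols, 2 rose. Gadd45gip1, a large-subunit protein, stood at 147, 133 and 173 in the wild-type libraries and 351, 222, 213 and 276 under the knockout label (log2 fold change 0.79, SE 0.22, adjusted p = 0.0378). Aurkaip1, a small-subunit protein, stood at 484, 681 and 634 in the wild-type libraries and 893, 909, 729.5 and 938 under the knockout label (log2 fold change 0.54, SE 0.16, adjusted p = 0.0441). Dap3, a GTP-binding small-subunit protein, had an estimate of -0.05, Ptcd3 -0.51 and Chchd1 0.39. Of the 14 translation factors, 0 were called by limma, with 2 higher and 1 lower at an unadjusted p under 0.05 and a median of 0.14. The nearest were Oxa1l, which inserts new chains into the inner membrane (log2 fold change 0.46, adjusted p = 0.0569), and the initiation factor Mtif3 (0.71, adjusted p = 0.0666). Of 25 assembly factors, 1 rose, or 4% against 5.98% of all tested genes. This was Rbfa, which helps the small subunit to mature, at 238, 209 and 257 in the wild-type libraries and 374, 386, 382 and 291 under the knockout label (log2 fold change 0.60, SE 0.18, adjusted p = 0.0439). The median of the assembly factors was 0.09.

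The 20 mitochondrial aminoacyl-tRNA synthetases and related enzymes had a median of 0.03. Of these, 1 was called higher, or 5% against 5.98% of all tested genes. The 1 was Lars2, which charges leucine tRNA, at 75312, 131246 and 131006 in the wild-type libraries and 243450.0, 165454, 189907 and 187856 under the knockout label (log2 fold change 0.84, SE 0.22, adjusted p = 0.0292). Before division by length, the mean of Lars2 over the 7 libraries was 160605 normalised counts, against 47.1 (Pars2) to 897 (Iars2) for the other 19 genes of the list. Whether reads of another RNA were counted under Lars2 was not tested, so its level is uncertain. Of 14 genes for mitochondrial transcription and mRNA upkeep, 0 were called by limma, with 1 higher at an unadjusted p under 0.05 and a median of 0.13. Slirp, an RNA-binding partner that keeps mitochondrial mRNAs stable, had an estimate of 0.75 (adjusted p = 0.121), and Fastkd1, of a family that handles mitochondrial RNA, one of -0.47 (adjusted p = 0.229).

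RNAs made inside mitochondria were also measured. Of the 13 mitochondrially encoded mRNAs, 7 rose and 11 had groups that did not overlap, with a median log2 fold change of 0.57. Of the rRNAs that these proteins bind, mt-Rnr1, of the small subunit, rose (log2 fold change 0.69, SE 0.20, adjusted p = 0.0439), while mt-Rnr2, of the large subunit, did not pass (log2 fold change 0.63, SE 0.21, adjusted p = 0.0673), and both had groups that did not overlap. Together they took 4.81%, 5.73% and 6.66% of all normalised counts in the wild-type libraries and 8.002%, 7.43%, 8.10% and 7.01% in the knockout-labelled libraries. For comparison, 68 of 78 cytosolic ribosomal proteins rose, with a median of 0.61, and 15 of 37 nuclear-encoded complex I subunits rose, with a median of 0.65. The differences between these lists were not tested.

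Over the 7 libraries, the genes outside the set whose log2 values followed the members' mean most closely were Adgrf5, an adhesion receptor of endothelial cells, Agpat3, an enzyme of phospholipid synthesis, and Grcc10, each with a Pearson r of 0.997 among 16853 genes. The libraries share their group and depth, so this describes a common profile. Adgrf5 had a log2 fold change of 0.34 (adjusted p = 0.0975) and Grcc10 of 0.66 (adjusted p = 0.0252).

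Markers of the labelled cell type were present at high levels. The 8 endothelial markers summed to 79617 to 103247 in the wild-type libraries and 106458 to 117555 under the knockout label, with 1 gene called higher, 1 called lower and a median log2 fold change of 0.21. Markers of several other cells of muscle also differed between the groups. The erythroid sum was 1757 to 5507 in the wild-type libraries and 4397 to 20253 under the knockout label, with 5 of 5 genes called higher, and the Schwann cell sum 10943 to 14591 in the wild-type libraries and 19869 to 27219.7 under the knockout label, with 3 of 4. The sum of smooth muscle and pericyte markers was 36294 to 48359 in the wild-type libraries and 61084 to 68652 under the knockout label. Of these 8 genes 4 were called higher and 3 had estimates below 0. Fibroadipogenic progenitor markers summed to 5478 to 9024 in the wild-type libraries and 11999.8 to 16014 under the knockout label, with 3 of 6 called higher and 1 estimate below 0. The satellite cell sum was 335 to 526 in the wild-type libraries and 612 to 828 under the knockout label, with 2 of 4 called higher. Macrophage markers summed to 192 to 282 in the wild-type libraries and 233 to 394 under the knockout label, with 1 of 6 tested genes called higher, 4 estimates below 0 and a median log2 fold change of -0.48. Tenocyte markers summed to 393 to 566 in the wild-type libraries and 523 to 722 under the knockout label, with 1 of 4. Adipocyte markers summed to 14.6 to 18.6 in the wild-type libraries and 22.8 to 107 under the knockout label, with 1 of 2 tested genes called higher. Muscle fibres are rich in mitochondria, and their 10 markers summed to 383 to 766 in the wild-type libraries and 516 to 811 under the knockout label, with 0 called by limma and 0 at an unadjusted p under 0.05. No marker of these lists was at 0 in all libraries. The part of these cells in the levels of the mitochondrial ribosomal proteins was not tested. With the mean log2 level of the muscle fibre markers in the model, 2 members and 1116 genes of the table were called. Of those genes 602 were higher, and the members' median change was 0.43. The marker level was 4.89 in wild-type library 1 and 5.26 to 6.01 in the others, so the fit cannot separate it from other traits of that library.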

How the data were processed

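Bulk RNA sequencing was analysed in 7 libraries of muscle endothelial cells, 3 wild type and 4 with a Glut1 label, grouped by sample title. Per the labels' protocols, libraries were made from 10 ng of RNA with a Takara Clontech Pico kit. The authors deposited 1 table per library of normalised counts, a signal scaled per library. Named in the submitters' processing notes, without role or version, are DESeq, DESeq2, featureCounts, kallisto and the build GRCm39; the kind of scaling is not stated there. Values were not whole: 24.4% to 48.6% of low values lay within 0.02 steps of a whole multiple of the library's smallest repeated value. Whole reads were therefore not recovered and no count model was run. Dividing totals by that step gave the estimated reads; no counting interval is given.

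Of 30899 genes, the 16931 averaging at least 10 were tested on log2 of the normalised count plus 1, which understates changes of low genes, with limma 3.58.1 (lmFit, eBayes with trend) in R 4.3.3. P-values are two-sided and Benjamini-Hochberg adjusted over the 16931 genes, and 0.05 was the threshold; log2 fold changes are knockout label minus wild type. Only the Mrps18 ratios had their own test, an exact permutation test with 35 arrangements of the group labels. The limma script was tested on simulated data with known changes. Members, gene lists, named-gene rule and tests were chosen with earlier results of these data known. Named members are, in each subunit, called genes with the smallest p, the largest and smallest changes, the highest and lowest means, the Mrps18 paralogues, Mrps30, Mrps36 and Mrpl58. Further called members, genes set beside them per kilobase and the neighbours Fau, Mrpl49, Ppp1r10, Eme1 and Mrpl27 were added after their values were seen. Transcript lengths, overlaps and neighbours came from GENCODE M21 and promoters from RefSeq, both on GRCm38, matched by symbol; all 78 members had a length. Alternatives covered pseudocount, filter, scaling, limma options, covariates, length trends, the replicate block and leaving out each library. Protein sequences were not used here.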

Additional observations from a re-analysis of the deposited data

Results flagged for a closer look

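In groups of 4 libraries, 2 of the 36 results checked had 1 value far from the others by Dixon's ratio of gap to range. Chance gives about 1 in 20 such groups. For Mrps18b the ratio was 0.940, since knockout-labelled library 3 stood at 131 normalised counts and the others at 90.8 to 93.2. For Mrps11, a small-subunit protein with a bacterial counterpart, it was 0.854, with 121 in knockout-labelled library 4 and 92.8 to 96.9 in the others.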

How the results depend on the processing

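In all, 1949 tested genes were called, and among the members 12, with a median change of 0.50. The member median stayed above 0 in all settings run. Equal totals gave 1847 genes, 226 of them higher, 1 member and a median of 0.27. Removing the length trend of expressed genes, added after the data were seen, changed the tested set as well, to 11021 genes. It gave 544 genes, 121 of them higher, 0 members (9 at an unadjusted p under 0.05) and a median of 0.14. The large-minus-small difference was -0.030 in place of 0.03. The filter at a mean of 50 by itself gave 1644 genes, 1081 of them higher, and 14 members. Removing the trend over all tested genes with a length gave 1780 genes, 942 of them higher, 9 members, a median of 0.47 and a difference of 0.03. Limma without trend gave 17 genes, 0 of them higher, and 0 members (37 at an unadjusted p under 0.05). The muscle fibre covariate gave 1116 genes, 602 of them higher, and 2 members. With no filter 1565 of 30085 genes were called, 708 of them higher, and 6 members. Quantile normalization gave 1102 genes, 447 of them higher, and 3 members. The receptor covariate gave 0 genes (742 at an unadjusted p under 0.05), 0 members (0 likewise) and a median of 0.076. The causes were not tested, beyond what each setting removes. The receptor level separated the groups by itself, so that setting cannot tell it apart from the group label. The pseudocounts, the higher filter, robust limma and median ratios gave 12 to 14 members.

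The replicate block gave 119 genes and 0 members (27 at an unadjusted p under 0.05). Knockout-labelled library 4 has no partner, so the block also removes it from the estimates, which equal those without that library; leaving it out with no block gave 639 genes and 0 members (30 at an unadjusted p under 0.05). Same-numbered libraries correlated at -0.08, -0.05 and -0.12 in their deviations from the group means. Centring on the means of such small groups constrains these correlations. They therefore cannot decide whether same-numbered libraries were prepared together. Leaving out 1 library gave 38 genes (without wild-type library 1) to 1992, 0 to 9 members, medians from 0.37 to 0.58 and large-minus-small differences from 0.01 to 0.11, the last without knockout-labelled library 2.

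Among the named members, signs changed as follows. Log2 fold changes were -0.16 for Mrpl24, -0.22 for Mrps17 and -0.15 for Mrps22 under equal totals, and -0.074 for Mrpl24 and -0.083 for Mrps17 under quantile normalization. They were -0.0071 for Mrpl14, -0.28 for Mrpl24, -0.40 for Mrpl52, -0.064 for Mrps17, -0.028 for Mrps18a, -0.31 for Mrps22 and -0.11 for Mrps36 without the length trend of expressed genes. Mrpl48 came to 0.041 without the trend of all genes. With the muscle fibre covariate the values were 0.0092 for Mrpl48 and -0.023 for Mrps17, and with the replicate block, as without knockout-labelled library 4, -0.25 for Mrps17. With the receptor covariate they were -0.31 for Mrpl14, -0.28 for Mrpl17, -0.34 for Mrpl19, -0.020 for Mrpl24, 0.15 for Mrpl48, -0.044 for Mrpl51, -0.26 for Mrpl52, -0.088 for Mrpl53, -0.075 for Mrpl58, -0.0051 for Mrps11, -0.53 for Mrps17 and -0.52 for Mrps36. Leaving out 1 library gave -0.34 to 0.0096 for Mrpl1, -0.15 to 0.072 for Mrpl48, -0.25 to 0.19 for Mrps17, -0.30 to 0.016 for Mrps18b and -0.070 to 0.18 for Mrps22. Of 672 values of named members under alternatives, 480 kept direction and side of the threshold, 148 lost the call, 5 gained one and 39 changed sign. Whole reads were not recovered, so the counting error of members with low means, such as Mrpl14 and Mrpl53, is unknown.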
